A study of Mus musculus with 6 samples.

Results

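The genes described here are 10 that mature dendritic cells use to move to lymph nodes and to activate T cells: Ccr7, Fscn1, Ccl17, Ccl22, Cd80, Cd86, Cd83, Cd40, Relb and Il12b. They were taken by symbol from a table of 19162 genes, and all 10 were among the 13326 genes with enough counts to test. The RNA came from C57BL/6J mouse bone marrow cells cultured in 40 ng/mL GM-CSF over 4 days, this cytokine being a growth factor for granulocytes, macrophages and dendritic cells. The control group had 3 libraries with no added salt, and the KCl group had 3 libraries with 34.7 mM of potassium chloride added to the culture. GM-CSF was given to both groups, and the series title calls the cells BM-MDSCs, the usual short form for bone marrow-derived myeloid-derived suppressor cells. No sort of the cells and no group with another salt was analysed here, so potassium and the added osmolality cannot be told apart. The labels do not say whether replicates were separate mice or cultures, so each p-value rests on a spread between samples that may be technical only.

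A dendritic cell that meets a microbe or an inflammatory signal stops sampling its surroundings and matures. It gains the chemokine receptor CCR7, which guides it along lymphatic vessels, and the actin-bundling protein fascin, which shapes its long dendrites. It secretes chemokines that draw T cells, and it shows the T cell the ligands CD80 and CD86, whose engagement of CD28 gives the second signal for activation. The NF-kB subunit RELB is needed for much of this programme, and IL-12 steers the T cells toward interferon production.

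Library totals ran from 14118724 to 21694831 counts. The mean of control 4 and KCl 4 tracked that of the other 4 libraries too closely for all 6 to be independent samples. Over 8231 genes of mean count 300 or more, the log2 ratio of this pair's mean CPM (counts scaled to library size) to that of the other 4 libraries had an SD of 0.010, where counting noise alone gives 0.044. For the 10 genes described here the ratio was at most 0.034 from 0 in either direction. It was above the gene's own counting noise for Ccl22 (0.025 against 0.008), Ccr7, Fscn1, Ccl17 and Cd83, and below it for the rest. P-values from all 6 libraries may be too small, and results without replicate 4 are given beside them. Genes of several cell types were present. The summed FPKM (reads scaled to gene length and library size) of 10 neutrophil markers, led by S100a9, was 12661 to 13754 in control and 13919 to 18846 in KCl. For 12 dendritic cell markers, of which H2-Eb1 of MHC class II was the most abundant, it was 1490 to 1759 in control and 912 to 1228 in KCl. Zbtb46, a transcription factor gene typical of classical dendritic cells, had 198 to 976 counts, whereas the cross-presenting subset's receptor gene Xcr1 had only 4 to 9. Sums for 9 monocyte markers were 277 to 319 in control and 429 to 481 in KCl, with 6 of the 9 higher by the test given below. For 11 macrophage markers they were 285 to 346 and 374 to 401. They were 1842 to 2039 and 666 to 800 for 8 eosinophil markers, with 5 of the 8 lower. The eosinophil sum was led by Prg2, at a mean FPKM of 1164 in control and 488 in KCl. Siglecf was at 3.25 and 3.49, and Ccr3 at 2.37 and 2.8. Sums for 9 B cell markers, led by Ighm, were 33.1 to 37.8 and 53.1 to 69.4. They were 369 to 470 and 303 to 398 for 7 basophil and mast cell markers, 4.93 to 5.48 and 4.74 to 8.21 for 7 plasmacytoid dendritic cell markers, and 1.59 to 2.42 and 1.91 to 2.23 for 10 T and NK cell markers. No marker was at 0 in every library. Calls higher and lower numbered 3 and 0 for 10 tested neutrophil markers and 2 and 1 for 11 macrophage markers. They numbered 2 and 0 for 6 tested B cell markers. For 7 basophil and mast cell markers they numbered 1 and 1, and for 4 tested T and NK cell markers 1 and 0. Of all tested genes 12.4% were called higher and 10.5% lower. Marker calls were not counted without replicate 4.

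All 10 genes had a lower fitted level in KCl than in control, and 5 of them passed the test. Ccl17, Il12b, Cd83, Cd80 and Relb fell, none rose, and Ccr7, Fscn1, Ccl22, Cd86 and Cd40 did not pass. Log2 fold changes, KCl against control, ran from -2.24 for Il12b to -0.38 for Cd40, with a median of -0.85, where the median of all tested genes was 0.00. Calls were made with the quasi-likelihood test of edgeR at an adjusted p of 0.05 (Benjamini-Hochberg, over all tested genes). Of all tested genes 22.9% were called, 10.5% lower and 12.4% higher. The 3 KCl libraries lay below all 3 control libraries for 9 of the 10 genes, which was so for 18.4% of all tested genes, and 38.5% did not overlap in either direction. The 10 genes were chosen with earlier results of these data known, so their comparison with all tested genes is descriptive only. Without control 4 and KCl 4 only Ccl17 of the 10 was called, where 0.126% of 13525 tested genes were called lower. All 10 estimates stayed negative there, with a median of -0.82. In bulk RNA, fewer mature dendritic cells and less of these transcripts per cell cannot be told apart. Of the 12 dendritic cell markers 11 were tested, of which 6 were lower in KCl and 0 higher, and Cd209a had a mean FPKM of 6.92 in control and 7.04 in KCl. Their part in the result was not tested.

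**Figure D1:**
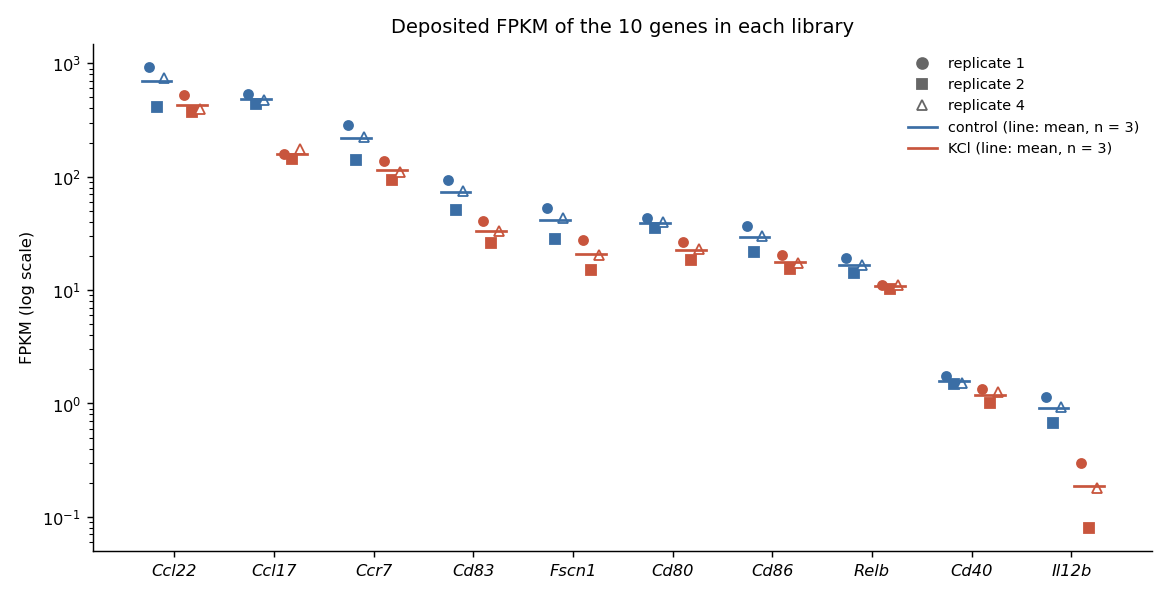
Deposited FPKM (log axis) of the 10 genes in the 3 control and 3 KCl libraries, with filled circles for replicate 1, filled squares for replicate 2, open triangles for replicate 4 and lines at the group means. The groups are widely apart for Ccl17 and Il12b, nearly touch for Ccr7, Fscn1 and Cd86, and overlap for Ccl22.

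Ccl17 encodes a chemokine that attracts T cells through the receptor CCR4. It lies on chromosome 8 of mm10 (GRCm38), from 94810453 to 94812036 on the plus strand. Its FPKM was 533, 438 and 475 in control 1, 2 and 4, and 159, 142 and 174 in KCl 1, 2 and 4. Every KCl library was far below every control library, and the lowest control stood 2.52-fold above the highest KCl value in scaled CPM. Ccl17 fell by 1.58 ± 0.09 on the log2 scale (SE, n = 3 per group), to 33.4% of the control level (edgeR adjusted p = 0.00167). The fall was 1.65 ± 0.12 without replicate 4 (edgeR adjusted p = 0.0355). With any 1 library left out, the log2 fold change lay between -1.65 and -1.52 and the call held.

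Ccl22 encodes the other ligand of CCR4 and lies in the same cluster, from 94745590 to 94751699 on the plus strand. Its FPKM was 928, 414 and 743 in control 1, 2 and 4, and 525, 369 and 395 in KCl 1, 2 and 4. Control 2 was below KCl 1, so the groups overlapped. The log2 fold change was -0.67 ± 0.30, which did not pass (edgeR adjusted p = 0.172). It passed with DESeq2 (adjusted p = 0.046). Without control 2 it was -0.94 and passed (adjusted p = 0.022), and without control 1 it was -0.42 (adjusted p = 0.425). Ccl22 had the highest level of the 10 genes in control, above 99.7% of tested genes by FPKM, and Ccl17 came next at 99.5%, but their control values overlapped.

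The ratio of Ccl17 to Ccl22 in FPKM was 0.574, 1.06 and 0.639 in control 1, 2 and 4, and 0.304, 0.385 and 0.441 in KCl 1, 2 and 4. The ratio was thus lower in every KCl library, with a difference in mean log2 ratio of -0.97. The exact permutation test, two-sided, gave p = 0.10, which is the smallest that 3 against 3 libraries allow. Without replicate 4 the difference for Ccl17 to Ccl22 was -1.19 (exact permutation test, two-sided, p = 0.33). With fewer libraries the smallest p that this test allows is larger. Between these neighbours lies Cx3cl1, which encodes the membrane-bound chemokine fractalkine. It sits 20.3 kb from Ccl22 and 28 kb from Ccl17, with no other protein-coding gene in the cluster's gaps. Cx3cl1 fell by 0.90 ± 0.21 on the log2 scale, from a mean FPKM of 9.31 to 4.92 (edgeR adjusted p = 0.029). That call was lost without any 1 library but control 2, with adjusted p from 0.0578 to 0.0928.

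Start-site sequences from RefSeq (build GRCm38.p6) were found for 5 of the 10 genes, namely Fscn1, Ccl17, Ccl22, Cd80 and Il12b. Each covers 250 bases before to 50 after the annotated start. Ccl17 and Ccl22 are shown because these neighbours differed in how far their levels stood apart between the groups, and Il12b because its estimate was the lowest. Capitals mark matches to TGGAAA, the core letters of the element bound by the osmotic-stress factor NFAT5, and to TTCNNNGAA, the palindrome bound by STAT5 and other STAT factors. The windows are chr8:94810203-94810502 for Ccl17, chr8:94745434-94745733 for Ccl22 and chr11:44399813-44400112 for Il12b, all on the plus strand.
Ccl17: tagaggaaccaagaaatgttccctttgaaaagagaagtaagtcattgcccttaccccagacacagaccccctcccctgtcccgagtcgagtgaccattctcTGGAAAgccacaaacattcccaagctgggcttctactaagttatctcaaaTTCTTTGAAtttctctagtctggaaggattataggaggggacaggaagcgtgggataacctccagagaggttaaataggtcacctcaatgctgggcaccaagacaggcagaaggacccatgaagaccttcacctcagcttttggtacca
Ccl22: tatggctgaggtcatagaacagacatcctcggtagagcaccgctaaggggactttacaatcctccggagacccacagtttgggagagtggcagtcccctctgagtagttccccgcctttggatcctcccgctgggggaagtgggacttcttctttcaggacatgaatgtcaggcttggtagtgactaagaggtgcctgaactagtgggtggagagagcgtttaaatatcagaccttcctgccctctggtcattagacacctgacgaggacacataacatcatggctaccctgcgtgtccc
Il12b: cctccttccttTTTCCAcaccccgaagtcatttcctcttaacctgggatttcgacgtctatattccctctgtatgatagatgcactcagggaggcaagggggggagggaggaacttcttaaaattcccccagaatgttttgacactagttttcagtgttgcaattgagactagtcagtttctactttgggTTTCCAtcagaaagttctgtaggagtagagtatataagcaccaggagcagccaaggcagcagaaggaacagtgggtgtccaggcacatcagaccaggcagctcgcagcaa

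Both strands were searched. TGGAAA was found in 2 of the 5 windows, 149 bases before the start in Ccl17 and, on the minus strand, 239 and 60 bases before it in Il12b. Of 32851 start-site windows of the same length, 21.4% hold it. TTCNNNGAA was found in 1 of the 5, 99 bases before the start of Ccl17, and 8.30% of all windows hold it. The AP-1 letters TGANTCA occurred in the Cd80 window and in 7.81% of all windows. That Cd80 window, chr16:38458683-38458982, lies inside the gene span given below, which begins at 38455561. The 10-letter NF-kB consensus GGG[AG]NN[CT][CT]CC was in none of the 5 windows and in 8.46% of all. Sites that depart from these letters would not be found by this search. The Ccl22 window held no match to any of the 4 motifs. No motif searched overlapped another in these windows. A match in letters describes the sequence and is not a measured site.

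Ccr7 encodes the receptor that carries mature dendritic cells toward lymph nodes. On the minus strand of chromosome 11 it spans 99144196 to 99155077. Its FPKM was 288, 140 and 225 in control 1, 2 and 4, and 137, 93.9 and 110 in KCl 1, 2 and 4. The groups did not overlap, but control 2 was only 1.02-fold above KCl 1 in scaled CPM. The log2 fold change was -0.92 ± 0.27, or 52.8% of control, and it did not pass (edgeR adjusted p = 0.0556). It passed with DESeq2 (adjusted p = 0.00141) and with upper-quartile scaling, at -0.96 with an adjusted p of 0.049. Leaving out control 2 gave -1.16 and an adjusted p of 0.0156, and the estimate without replicate 4 was -0.86 ± 0.37 (adjusted p = 0.198).

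Fscn1 encodes fascin, which packs actin filaments into the dendrites of mature cells and is little made by other leukocytes. The gene spans 142960343 to 142973185 on the plus strand of chromosome 5. FPKM values were 52.8, 28.3 and 43.3 in control 1, 2 and 4, and 27.9, 14.9 and 20.2 in KCl 1, 2 and 4. As with Ccr7, control 2 and KCl 1 nearly met, at a ratio of 1.01 in scaled CPM. The log2 fold change of Fscn1 was -0.96 ± 0.29 (edgeR adjusted p = 0.0603), and -0.90 ± 0.40 without replicate 4 (adjusted p = 0.208). It passed with DESeq2 (adjusted p = 0.00183) and without control 2, at -1.18 with an adjusted p of 0.0303, and just passed without KCl 1, at -1.21 with an adjusted p that rounds to 0.05.

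Cd80 encodes one of the pair of ligands that bind CD28 on T cells, and the inhibitory receptor CTLA4. On the plus strand of chromosome 16 it spans 38455561 to 38496335. Its FPKM was 43.4, 35.2 and 39.6 in control 1, 2 and 4, and 26.4, 18.4 and 23.1 in KCl 1, 2 and 4. The groups were clearly apart, the lowest control standing 1.33-fold above the highest KCl library. Cd80 fell by 0.78 ± 0.13 on the log2 scale, to 58.2% of control (edgeR adjusted p = 0.0107). The call held with any 1 library left out (adjusted p 0.0179 to 0.0408), and was lost without replicate 4, where the estimate was -0.78 ± 0.19 (adjusted p = 0.0971).

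Cd86 encodes the partner ligand and lies also on chromosome 16, 1789 kb away on the minus strand (36603869 to 36666081). FPKM was 36.6, 21.5 and 30.2 in control 1, 2 and 4, and 20.6, 15.2 and 17.4 in KCl 1, 2 and 4. The lowest control and the highest KCl library were 1.04-fold apart. The log2 fold change of Cd86 was -0.71 ± 0.20 and missed the threshold (edgeR adjusted p = 0.0528). It passed with DESeq2 (adjusted p = 0.00289), with upper-quartile scaling (0.0447) and without control 2 (0.0164), and stood at -0.67 ± 0.28 without replicate 4 (0.195). Cd80 and Cd86 were not told apart by their ratio. It was 1.18, 1.64 and 1.31 in control 1, 2 and 4 and 1.28, 1.21 and 1.33 in KCl 1, 2 and 4. The log2 ratio differed by -0.10 between groups (exact permutation test, two-sided, p = 0.70), and by 0.0284, so in the other direction, without control 2. Without replicate 4 the difference was -0.16.

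Cd83 encodes a surface protein of mature dendritic cells that keeps MHC class II and CD86 at the membrane. The gene spans 43784775 to 43803132 on the plus strand of chromosome 13. Its FPKM was 94, 50.9 and 74.9 in control 1, 2 and 4, and 40.7, 26.2 and 33.5 in KCl 1, 2 and 4. All KCl libraries were lower, although control 2 stood nearer to KCl 1 than to control 1. Cd83 fell by 1.11 ± 0.25 on the log2 scale, to 46.3% of control (edgeR adjusted p = 0.0237). The call was lost without control 1 (adjusted p = 0.0598), control 4 (0.0649), KCl 2 (0.0741) or KCl 4 (0.0736), and without replicate 4 (0.129).

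Cd40 encodes the receptor through which helper T cells license a dendritic cell. On the plus strand of chromosome 2 it spans 165055627 to 165072948. This gene was scarce in these cultures, above only 26.3% of tested genes in control, with an FPKM of 1.75, 1.48 and 1.5 in control 1, 2 and 4 and 1.33, 1.01 and 1.25 in KCl 1, 2 and 4. KCl libraries were again all lower, but by little. The log2 fold change was -0.38 ± 0.12, which did not pass (edgeR adjusted p = 0.0728), and it did not pass with any 1 library left out (0.0814 to 0.183). CD40 is also made by B cells, whose markers had a higher sum in KCl, as given above, and the share of Cd40 reads from B cells was not tested.

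**Figure D2:**
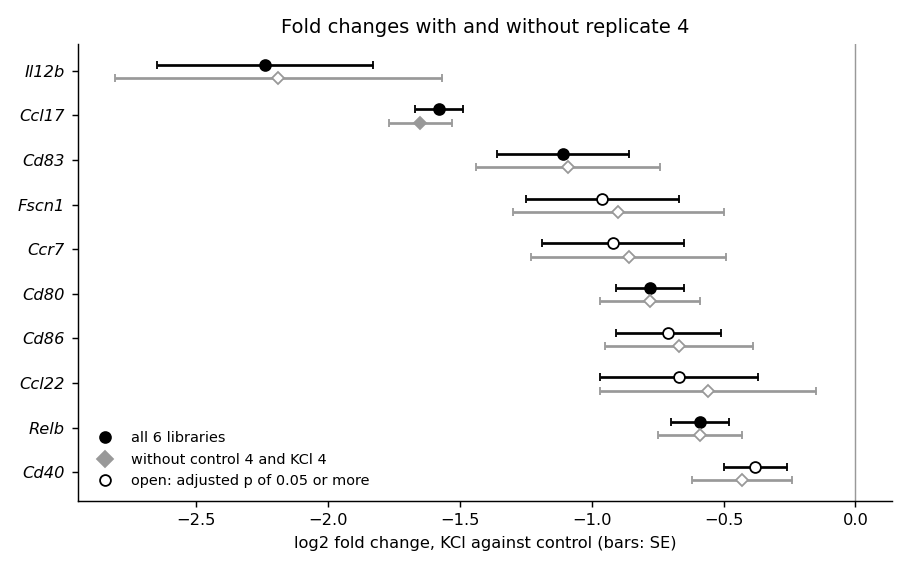
Log2 fold change of each gene, KCl against control, with its SE, from all 6 libraries (black circles) and without control 4 and KCl 4 (grey diamonds). Filled symbols passed an adjusted p of 0.05 in edgeR's quasi-likelihood test. All estimates lie below 0, and without replicate 4 only Ccl17 (-1.65) is filled.

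Relb encodes the NF-kB subunit that pairs with the product of Nfkb2 in the alternative pathway, downstream of CD40. The gene spans 19606217 to 19629438 on the minus strand of chromosome 7. FPKM was 19.0, 14.2 and 16.5 in control 1, 2 and 4, and 11.2, 10.3 and 11 in KCl 1, 2 and 4. The 3 KCl libraries were close together and all lower. Relb fell by 0.59 ± 0.11 on the log2 scale, to 66.5% of control (edgeR adjusted p = 0.0128). The call held with any 1 library left out, the highest adjusted p being 0.047, and was lost without replicate 4 at the same estimate (0.104). Nfkb2 had a log2 fold change of -0.16 ± 0.06 and did not pass (edgeR adjusted p = 0.104).

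Il12b encodes the p40 chain shared by the cytokines IL-12 and IL-23. On the plus strand of chromosome 11 it spans 44400063 to 44414033. It was the scarcest of the 10 genes, as control 1, 2 and 4 held 66, 41 and 37 counts and KCl 1, 2 and 4 held 16, 4 and 9. In FPKM these were 1.13, 0.673 and 0.933, against 0.301, 0.0799 and 0.179. The lowest control value was 2.23-fold above the highest KCl value in scaled CPM. Il12b fell by 2.24 ± 0.41 on the log2 scale, to 21.1% of control (edgeR adjusted p = 0.013). The call was lost without KCl 4 (0.0531) and without replicate 4 (-2.19 ± 0.62, 0.111). With so few counts the size was loosely set, from -2.76 without KCl 1 to -1.91 without KCl 2.

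Of the chains that join p40, one was tested. Il12a, which encodes the p35 chain of IL-12, rose by 1.19 ± 0.13 (log2), as control 1, 2 and 4 had 38, 38 and 29 counts and KCl 1, 2 and 4 had 84, 72 and 74 (edgeR adjusted p = 0.00356). All KCl libraries were higher, and the estimate was 1.27 without replicate 4 (adjusted p = 0.0753). Il23a, the partner chain in IL-23, had 0 to 3 counts per library and was not tested.

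The 10 genes also varied together within the groups. In control, replicate 1 was the highest and replicate 2 the lowest library for all 10 genes, an order found in 23.6% of tested genes. In KCl the same order held for 9 of the 10, against 21.2% of tested genes, with KCl 4 highest only for Ccl17. Because the mean of control 4 and KCl 4 tracked that of the other libraries, their places are not independent of the rest. A middle place was not forced, as control 4 was highest for 27% and lowest for 27.2% of tested genes. For KCl 4 these shares were 23.5% and 33.2%. The genes share the same libraries and depth, so they are not separate evidence. The median of the 10 genes relative to the control mean was, as a log2 ratio, 0.31, -0.45 and 0.04 for control 1, 2 and 4. For KCl 1, 2 and 4 it was -0.57, -1.09 and -0.90. Across all tested genes each library's median was within 0.01 of 0.

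The size of this variation differed among the 10 genes. Control 1 exceeded control 2 by 2.23-fold for Ccl22, 2.05-fold for Ccr7, 1.86-fold for Fscn1, 1.84-fold for Cd83 and 1.70-fold for Cd86. Among 10378 genes averaging 100 counts or more, 0.511% had a ratio as high as that of Ccl22 and 1.89% one as high as that of Cd86, and the median ratio was 0.997. The ratio was smaller for Relb (1.34), Cd80 (1.23), Ccl17 (1.21) and Cd40 (1.17). Of the 5 genes with the larger ratios only Cd83 passed the test, and of the other 5, Il12b included at 1.67, only Cd40 did not. The spread between control libraries enters that test, so this tally is not a separate result. The cut between Il12b and Cd86, at 1.67 and 1.70, was narrow.

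**Figure D3:**
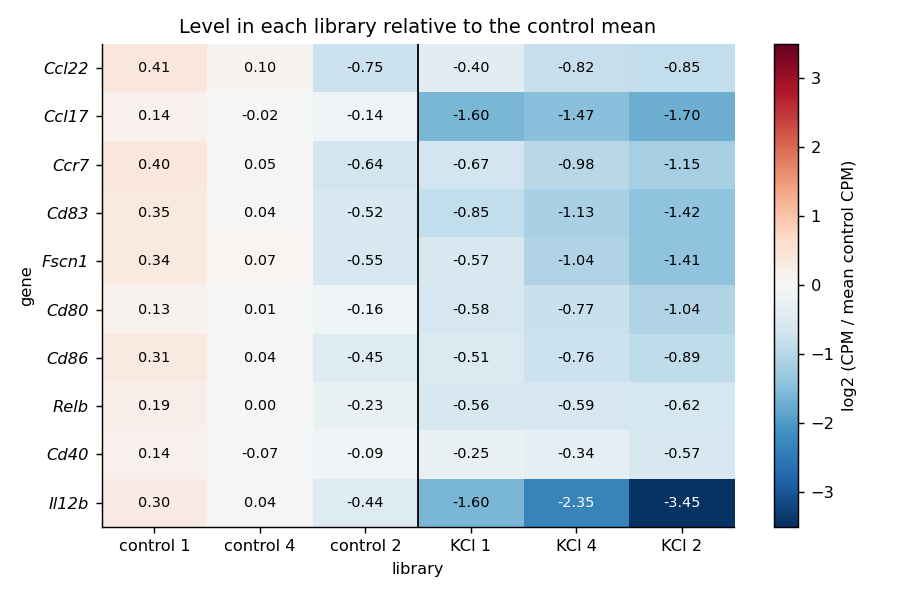
Level of each gene in each library, as the log2 ratio of TMM-scaled CPM to the mean of the 3 control libraries, with libraries ordered as replicate 1, 4 and 2 within each group. Red is above and blue below the control mean. Control 2 is below that mean for all 10 genes, at -0.75 for Ccl22, close to the -0.85 of KCl 2.

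The wider set of genes that mature dendritic cells switch on was mixed. Estimates were below 0 for 37 of its 51 tested genes, and for 50.6% of all tested genes. Among 51 such genes tested, 12 were lower, 6 higher and 33 not called, with a median log2 fold change of -0.29, where 10.5% of all tested genes were called lower and 12.4% higher. Apol7c, an apolipoprotein L family gene, fell by 1.47 ± 0.08 (log2), with group means of 16.6 CPM in control and 5.96 in KCl (edgeR adjusted p = 0.00155). Socs3, a feedback inhibitor of cytokine signalling, rose by 1.13 ± 0.09, from 66.8 to 146 CPM (adjusted p = 0.00234). These were the only genes of the set called without replicate 4 (adjusted p 0.0429 and 0.0438). The tetraspanin gene Cd63 rose by 0.57 ± 0.07 and Il15, a cytokine gene for NK and memory T cells, by 0.67 ± 0.09. The chemokine gene Ccl5 stood at -0.75 ± 0.21 and just missed the threshold (adjusted p = 0.0517), but passed with RLE, upper-quartile or library-size scaling or no filter (0.0425 to 0.0493), with DESeq2 (0.0028) and without control 2 (0.0136). The order of libraries described above, in both groups, held for 35.3% of the set and for 9.39% of all tested genes.

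Of 21 tested other ligands that T cells read from a dendritic cell, 3 were higher, 4 lower and 14 not called, with a median of 0.00. Of all tested genes 12.4% were called higher and 10.5% lower. The TNF family ligand genes Tnfsf9, which encodes 4-1BB ligand, and Tnfsf14, which encodes LIGHT, rose by 0.85 ± 0.11 and 0.59 ± 0.07. Slamf1, a self-binding receptor of lymphocytes and dendritic cells, fell by 1.36 ± 0.22 on the log2 scale, and Pvr, which encodes a ligand of TIGIT and CD226, fell by 0.46 ± 0.06. The adjusted p in edgeR's test was 0.005, 0.00485, 0.00939 and 0.00607 in that order. Cd274, which encodes the inhibitory ligand PD-L1, had a mean of 224 CPM in control and in KCl, a log2 difference of 0.00 ± 0.05 (adjusted p = 0.996). Without replicate 4 none of the set was called.

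Of 11 tested receptors and partner chains of the 10 genes' products, 5 were higher, 3 lower and 3 not called, beside 12.4% higher and 10.5% lower of all tested genes. The median was 0.30. Ccr4, the receptor for CCL17 and CCL22, had counts of 42, 85 and 42 in control 1, 2 and 4 and 104, 112 and 106 in KCl. Ccr4 rose by 1.01 ± 0.24 (edgeR adjusted p = 0.0294), but missed the threshold without control 4, KCl 1, KCl 2 or KCl 4 (0.0631 to 0.0877). Cx3cr1, the fractalkine receptor, rose by 0.60 ± 0.11 (0.0126), and missed the threshold with DESeq2 (0.0711) and without control 4 (0.0675) or KCl 4 (0.0594). The IL-12 receptor gene Il12rb2 fell by 0.50 ± 0.10 on the log2 scale, and missed it without control 1 (0.0524), control 4 (0.0565) or KCl 4 (0.0611). Il23r, with 32, 21 and 19 counts in control and 3, 7 and 1 in KCl, fell by 2.60 ± 0.51, and missed it without control 1 (0.0555), control 4 (0.0548) or KCl 1 (0.059). The CCR7 ligand gene Ccl19 was not analysed here.

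Of 36 other tested genes of the NF-kB pathway and of CD40 signalling, 3 were higher, 0 lower and 33 not called, beside 12.4% higher and 10.5% lower of all tested genes. The median was 0.08. The TNF receptor genes Tnfrsf1a and Tnfrsf1b rose by 0.54 ± 0.08 and 0.58 ± 0.10 (edgeR adjusted p = 0.00776 and 0.00979). Rela, the main subunit of the classical pathway, rose by 0.22 ± 0.04 (0.0169), but was not called without control 1 or 4 or without KCl 1 or 4 (0.051 to 0.0711). The kinase gene Tbk1 was at 0.20 ± 0.06 and did not pass (0.0614).

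Of 50 tested genes of the machinery that moves dendritic cells, 10 were higher, 5 lower and 35 not called, beside 12.4% higher and 10.5% lower of all tested genes. The median was 0.08. F11r, a junctional adhesion molecule, rose by 0.48 ± 0.06, the membrane protease gene Mmp14 by 0.63 ± 0.10 and the transporter gene Abcb1a by 1.20 ± 0.18 (edgeR adjusted p = 0.00581, 0.00876 and 0.00704). Cdc42, a small GTPase that steers dendrite formation, fell by 0.28 ± 0.05 on the log2 scale (0.00895), a call lost without KCl 4 (0.0506).

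Of 37 tested genes that mark dendritic cells whether mature or not, 12 were lower, 3 higher and 22 not called, where 10.5% of all tested genes were lower and 12.4% higher. The median was -0.23. Itgax, the integrin CD11c, fell by 0.70 ± 0.05 on the log2 scale, Id2, a regulator of dendritic cell development, by 0.75 ± 0.08, and the adhesion gene Epcam by 2.05 ± 0.26 (edgeR adjusted p = 0.00234, 0.00405 and 0.00516). Ccr9, a homing receptor found on plasmacytoid dendritic cells, rose by 2.06 ± 0.28 from 1.04 to 4.31 CPM (0.00585). Among 6 tested markers of plasmacytoid dendritic cells, 1 was higher and 1 lower. Mean FPKM was lower in KCl for Pacsin1 (1.23 in control and 0.616 in KCl) and Cox6a2 (1.17 and 0.534, with 4 to 21 counts). Higher means in KCl were found, besides Ccr9, for Ly6d (2.03 and 3.97), Siglech (0.19 and 0.273), Tcf4 (0.431 and 0.483) and Klk1 (0.122 and 0.204). Zbtb46 fell by 1.12 ± 0.30 (0.0443), but was not called without control 1 or 4 or without KCl 2 or 4 (0.0982 to 0.125). Flt3, the growth factor receptor of dendritic cell precursors, was at -0.63 ± 0.24 (0.113) and was called without KCl 1 (0.0392). Irf4, a factor of the CD11b+ subset, was at -0.34 ± 0.15 with overlapping groups (0.154). The order of libraries described above, in both groups, held for 37.8% of this list.

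The GM-CSF receptor and the signals that start maturation were also counted. Among the 38 tested, 8 were higher, 2 lower and 28 not called, beside 12.4% higher and 10.5% lower of all tested genes. The median was 0.09. Cd14, the lipopolysaccharide co-receptor, rose by 0.77 ± 0.10, the kinase gene Pim1 by 0.44 ± 0.07 and the receptor chain gene Csf2ra by 0.45 ± 0.08 (edgeR adjusted p = 0.00503, 0.00851 and 0.014). Csf2rb, the gene for the beta chain that GM-CSF uses, was at -0.18 ± 0.08 and did not pass (0.164). Csf2rb2, the gene for the beta chain specific to IL-3, fell by 0.29 ± 0.06 on the log2 scale (0.0148). That call was lost without control 4 (0.0651) or KCl 4 (0.0708). Csf2rb2 is a near copy of Csf2rb, and the counting may have divided reads between them. Without replicate 4, none of the genes in the 5 sets from the receptors and partner chains to the maturation signals was called.

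**Figure D4:**
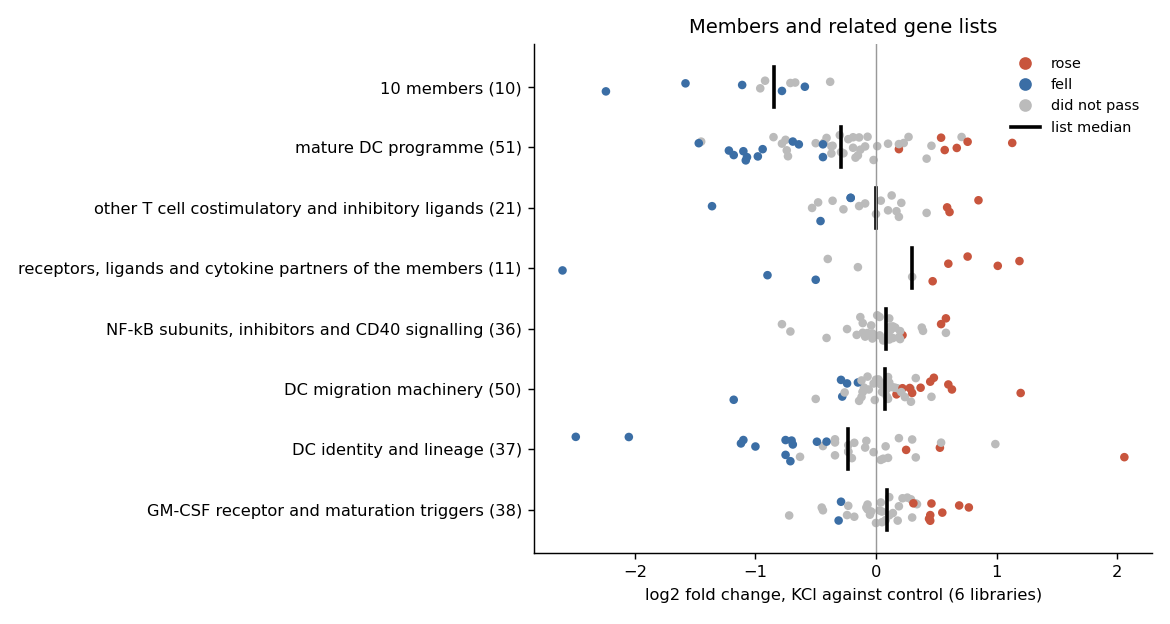
Log2 fold changes, KCl against control with all 6 libraries, of the 10 genes and of 7 related gene lists, with the number tested in brackets. Each point is a gene, coloured by whether it rose, fell or did not pass an adjusted p of 0.05, and black bars are list medians. The 10 genes have the lowest median (-0.85), the mature dendritic cell list is at -0.29 and the NF-kB list at 0.08. Genes and lists were chosen with earlier results of these data known, so their ranking is descriptive only.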

How the data were processed

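RNA sequencing was compared between 3 control and 3 KCl libraries, grouped by the treatment label, with replicate numbers 1, 2 and 4 from the titles. The submitters' processing notes name build mm10, HISAT2 2.0.4, StringTie 1.3.3b and edgeR. How reads were counted, and with which strand setting, is not given in the sources used here. No exon of the 10 genes shares bases with another gene in GENCODE M21. For each gene and library the authors deposited a read count, as a whole number, and an FPKM value. No other sample's columns were used.

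Counts were tested as deposited in R 4.3.3 with edgeR 4.0.16: filterByExpr (minimum count 10, minimum total 15), TMM scaling and the robust quasi-likelihood test, two-sided, adjusted over all 13326 tested genes. The SE is the log2 fold change divided by the square root of F. FPKM was used for levels, marker sums and the 2 ratios. The test was checked on simulated data.

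The members and the 7 lists were chosen with earlier results of these data known. Named genes were the 10 members, up to 4 per list with the smallest p, and Nfkb2, Ccr4, Il12a, Il23a, Ccl19, Zbtb46, Flt3, Itgax, Ccl5, Cd274, Irf4 and Cx3cl1. The marker genes H2-Eb1, S100a9, Ighm, Xcr1, Cd209a, Pacsin1, Cox6a2, Ly6d, Siglech, Tcf4, Klk1, Prg2, Siglecf and Ccr3 were named after their values were seen. So were the list genes Il12rb1 and Csf2rb. Alternatives were other scalings and filters, a replicate block, left-out libraries, DESeq2 1.42.0 and limma-voom (limma 3.58.1).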

Additional observations from a re-analysis of the deposited data

How the results depend on the processing

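The number of the 10 genes called lower was 5 with all 6 libraries, 8 with the replicate block, 9 with DESeq2, 1 without replicate 4, and 3 (without KCl 4) to 9 (without control 2) with 1 library left out. All genes called numbered 3057, against 1678 with the replicate block, 62 without replicate 4 and 1439 to 2851 with 1 library left out. None of the 10 genes changed sign in any alternative fit, Il12b not being tested at a mean CPM of at least 5. The log2 ratio of Ccl17 to Ccl22 ranged from -1.14 to -0.70 with 1 library left out, and that of Cd80 to Cd86 from -0.21 to 0.0284, reversing without control 2. The cause of these changes was not tested, though fewer libraries are part of those that leave libraries out. The log2 fold change of Cd274, at 0.00, was -0.0016 with RLE, -0.0455 with upper-quartile and -0.0207 with library-size scaling, -0.0212 with no filter, -0.0012 with DESeq2, and -0.0366 to 0.0178 with 1 library left out and 0.0260 without replicate 4. Over all 13326 tested genes, deviations of same-numbered libraries from their group means correlated at 0.0234, -0.0555 and -0.746 for replicates 1, 2 and 4. The correlation was -0.276 for control 1 with KCl 2 and -0.281 for control 2 with KCl 1. Between replicate 4 and the other numbers it was 0.292 to 0.37. Because replicate 4 was tied to the other libraries, these values cannot decide whether the numbers mark pairs. The labels do not say so, and the main fit took none. For the 10 genes, replicate 1 was highest and replicate 2 lowest in both groups for 9. The replicate block added calls for Ccr7 (edgeR adjusted p = 0.034), Fscn1 (0.0225), Cd86 (0.033), Flt3 (0.0493) and Irf4 (0.0486), and lost those of Cx3cr1 (0.0673), Csf2rb2 (0.0667), Il23r (0.074) and Rela (0.0887). DESeq2 added Ccr7, Fscn1, Cd86 and Ccl22. Counting error limits Il12b most, with 4 to 16 counts per KCl library.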
